A study of Mus musculus with 24 samples.

Results

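Wounds of diabetic mice treated with medium from M1 macrophages were compared with wounds treated with medium from M2a macrophages. The libraries were chosen by their treatment label, CM1 (4 libraries) or CMA (5 libraries), which made 9 of the 24 libraries of the series. All mice were male db/db mice on the C57BLKS/J background, which lack a working leptin receptor and become obese and diabetic, so controls and treated animals share that genotype. A full-thickness wound of 6 mm was punched into the back at 16 weeks of age and dressed at once with alginate, a seaweed-derived wound dressing, which was renewed on day 3. The dressing carried medium conditioned by M1 polarised primary macrophages (CM1) or by M2a polarised ones (CMA), and wound tissue was taken on day 10, at a labelled age of 17.5 weeks. The other libraries came from control dressings (Ctrl, 6), and from medium of M0 (CM0, 4) and M2c (CMC, 5) macrophages. The polarising stimuli, the macrophage donors and the batches of medium are not stated in the labels, nor is whether the control dressing carried unconditioned medium. Values over Ctrl therefore cannot separate the medium as such from what macrophages added to it. The design gives the group sizes as mice, and replicate numbers were assigned in accession order.

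As background, macrophages exposed to bacterial products or interferon take on an inflammatory state, M1, in which they make inducible nitric oxide synthase, interleukin 1 and chemokines that draw neutrophils and monocytes. Macrophages exposed to interleukin 4 or 13 take on the M2a state, marked by arginase 1 and the mannose receptor and tied to matrix deposition and repair. Diabetic wounds are known for inflammation that persists, for poor vessel growth and for slow closure by keratinocytes. Medium of either state carries what those cells secreted, and the RNA measured here is that of the mouse wound, including its own macrophages.

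No gene separated CM1 from CMA wounds after correction. Among 18978 genes tested, edgeR put 0 (0%) below an adjusted p of 0.05, and the lowest adjusted p was 0.995. DESeq2 called 0 (0%) of 38663 genes, with a lowest adjusted p of 0.706, and limma called 0 (0%). At an unadjusted p under 0.05 edgeR had 759 genes (4% of those tested), DESeq2 915 and limma 738. Of the 759, 433 were higher in CM1 (2.28% of genes tested) and 326 in CMA (1.72%). All CM1 libraries were above all CMA libraries in 108 genes (0.569%), and the reverse held in 93 (0.49%). Every edgeR adjusted p of a gene named below was 0.995 or more, so differences are given as values with their standard error (SE) and none passed the test. A log2 fold change is positive where CM1 was higher, and levels are in CPM, counts scaled to a common library size.

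The comparison bounds the differences of most genes. Of 18573 genes whose mean reached 1 CPM, 15482 (83.4%) had a 95% interval of the CM1 to CMA ratio within 2-fold in either direction. The median log2 fold change over all genes tested was -0.00074, and 49.8% stood higher in CM1. Total counts were between 8323331 and 11958892 in the 9 libraries. The wound tissue label was borne out by abundant skin genes, with the collagen gene Col3a1 between 22007 and 45663 CPM and the basal keratin gene Krt14 between 1999 and 4551 CPM.

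CMA libraries were as far from each other as from CM1 libraries, and CM1 libraries were somewhat closer to each other on average. Over the 500 genes that differ most in each pair, the root mean square log2 difference averaged 1.85 within CM1 (6 pairs), 2.10 within CMA (10 pairs) and 2.01 between CM1 and CMA (20 pairs). The ranges overlapped, at 1.67 to 1.99, 1.91 to 2.36 and 1.67 to 2.46. The libraries farthest from the other 8 were CMA 3 at 2.19 on average, CMA 2 and CMA 5 at 2.08 each and CM1 3 at 2.06. Averaged over a gene list, levels of M1, neutrophil and chemokine genes were highest in CM1 3 and CMA 4 within their groups. Those of hair follicle genes were highest in CMA 3. Not every inflammatory gene followed, as Ccl2 was lowest in CM1 3 among CM1 libraries and highest in CMA 5 among CMA libraries. Results that rest on CM1 3, CMA 4 or CMA 3 are also given without them.

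**Figure D1:**
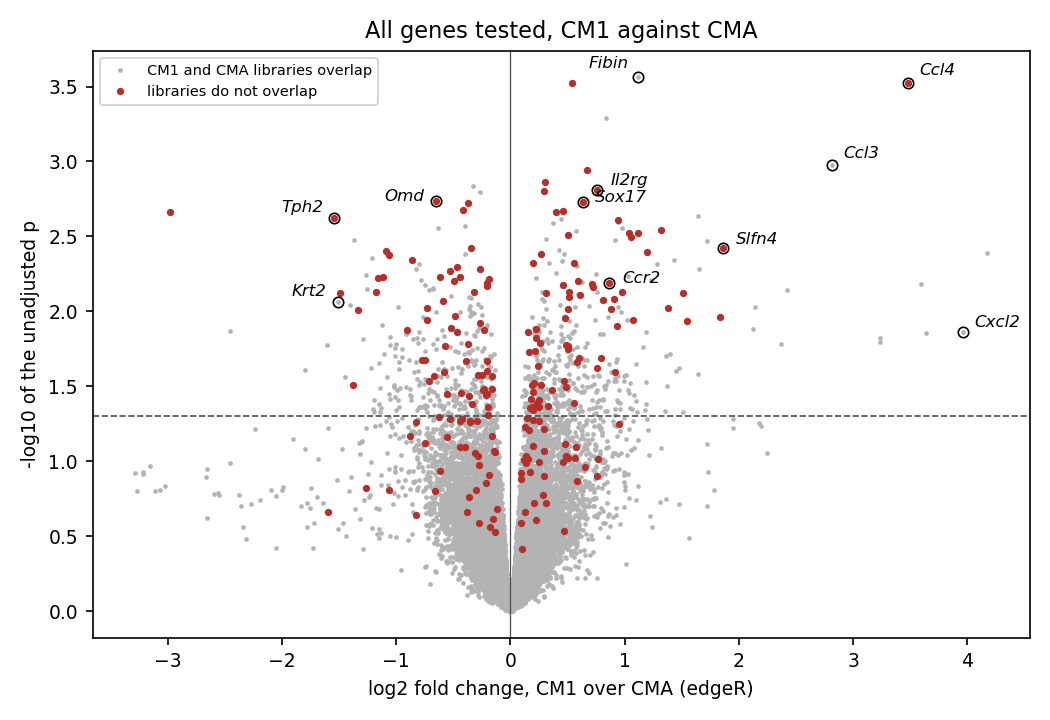
Each point is 1 of the 18978 genes tested, with the edgeR log2 fold change of CM1 over CMA on the x axis and the -log10 of the unadjusted p on the y axis. The dashed line marks an unadjusted p of 0.05, red points are genes whose CM1 and CMA libraries do not overlap, and circled genes are named in the text; no gene passed after adjustment.

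Among the genes that define the macrophage states, those of M2a did not lean toward either medium. Of 22 tested members of the M2a list, 11 stood higher in CM1 and 11 in CMA, with a median log2 fold change of -0.01 beside -0.00074 for all genes. Arg1, arginase 1, was at 265, 108, 305 and 153 CPM in CM1 1 to 4 and at 263, 139, 131, 430 and 30.1 CPM in CMA 1 to 5. The groups overlapped widely, and the log2 fold change was 0.06 (SE 0.83, 95% interval -1.67 to 1.80). Mrc1, the mannose receptor, was at 394 ± 79.1 CPM (SD, n = 4) in CM1 and 328 ± 59.7 CPM (SD, n = 5) in CMA. Retnla, a secreted protein of the M2a state, was at 29.3 CPM in CM1 2 and 31.1 CPM in CMA 2 and at no more than 8.29 CPM in the other 7 libraries. Chil3, a chitinase-like protein of macrophages, stood at a log2 fold change of 0.95 (SE 0.53) and Il4ra, a subunit of the interleukin 4 receptor, at 0.32 (SE 0.32).

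M1 genes leaned to CM1, by an amount that depended on 2 libraries. Of 21 tested members 17 stood higher in CM1, with a median of 0.24, and 4 had an unadjusted p under 0.05, all higher in CM1, beside 2.28% of all genes. Without CM1 3, 11 of 21 stood higher, the median was 0.07 and 1 had such a p, beside 1020 of 19222 genes in either direction. Without CMA 4 the median was 0.50, and without both 0.16 with 14 of 21 higher. Cd86, a costimulatory receptor, was at 13.8, 13.4, 18.1 and 14.8 CPM in CM1 and 11.9, 7.63, 11.7, 13.3 and 9.39 CPM in CMA. Its groups did not overlap, although CM1 2 and CMA 4 differed by little, and the log2 fold change was 0.48 (SE 0.17). Nos2, inducible nitric oxide synthase and the defining M1 enzyme, was at 10.9, 4.19, 22.8 and 19.2 CPM in CM1 and 8.36, 4.84, 2.59, 157 and 2.16 CPM in CMA. The highest value of the 9 libraries was thus in an M2a-medium wound, CMA 4. Similar levels occurred in other groups, at 161 CPM in Ctrl 1, 151 CPM in CMC 1 and 141 CPM in CMC 2. The remaining Ctrl, CM0 and CMC libraries were between 1.51 and 52.8 CPM. The log2 fold change of Nos2 was -1.29 (SE 1.45, 95% interval -4.32 to 1.73) and turned to 1.69 without CMA 4.

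Genes common to macrophages differed little. Of 20 tested, 18 stood higher in CM1 with a median of 0.16, and without CM1 2 the count was 10 and the median -0.0017. Adgre1, which encodes the macrophage marker F4/80, was at 183 ± 17.4 CPM (SD, n = 4) in CM1 and 165 ± 51.8 CPM (SD, n = 5) in CMA. Aif1, an actin-binding protein of macrophages, stood at 0.43 (SE 0.17) on the log2 scale and Cd14, the lipopolysaccharide co-receptor, at 1.12 (SE 0.59). Of 16 genes of the M2c state and of resolution 15 stood higher in CM1, with a median of 0.23 that was 0.08 without CM1 2. Stab1, a scavenger receptor, was among them at 0.29 (SE 0.15), as was Cd163, the haemoglobin scavenger receptor, at 0.33 (SE 0.40). In bulk tissue, fewer cells of a type and less RNA per cell cannot be told apart.

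Chemokine genes were the list with the highest median. All 17 tested genes for chemokines of neutrophils and monocytes stood higher in CM1, with a median log2 fold change of 0.80, and 4 had an unadjusted p under 0.05, beside 2.28% of all genes. That count was 5 without CM1 3 and 0 without CM1 3 and CMA 3 together. It was 7 without CM1 3 and CMA 4 together and 11 without CMA 4. Over all genes in these fits, in either direction and the same order, it was 1020 of 19222, 831 of 19264, 1306 of 19283 and 1049 of 18978. Part of the size came from CM1 3, as without it 14 of 17 stood higher and the median was 0.56. Without CMA 4 the count was 16 and the median 1.004, and without CM1 3 and CMA 4 together the count was 16 and the median 1.09. Against Ctrl, which serves both groups, 14 of the 17 stood higher in CM1 (median 0.34) and 1 of 17 in CMA (median -0.49). Mean levels in log2 CPM over the list were 4.22 in CM1, 2.98 in CMA, 3.28 in Ctrl, 3.38 in CM0 and 3.82 in CMC. Their SDs were 0.59, 0.76, 1.03, 0.73 and 0.78 in the same order. The control level was uneven, with Cxcl2 at 77.6 CPM in Ctrl 1 and between 0.68 and 14.6 CPM in Ctrl 2 to 6. For Ccl3 it was 14.9 CPM in Ctrl 1 and 1.35 to 5.65 CPM in the others, while Ccl2 was highest in Ctrl 6 (36.8 CPM). No fit left out a Ctrl library.

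The promoters of Cxcl2 and Ccl3 are shown because these chemokine genes had some of the largest differences. RefSeq promoters were looked up by symbol for 3 chemokine genes, Ccl3, Ccl4 and Cxcl2, and found for 2. Each holds the 250 bases before the start of transcription and 50 after it (GRCm38.p6), printed 5′ to 3′ on the strand of the gene. The Cxcl2 promoter lies at chr5:90903649-90903948 on the plus strand and the Ccl3 promoter at chr11:83649329-83649628 on the minus strand. Capitals mark matches to GGGA and CC with any 4 bases between them, a simple form of the motif of NF-kB, a transcription factor of inflammatory signalling, searched on both strands.
Cxcl2: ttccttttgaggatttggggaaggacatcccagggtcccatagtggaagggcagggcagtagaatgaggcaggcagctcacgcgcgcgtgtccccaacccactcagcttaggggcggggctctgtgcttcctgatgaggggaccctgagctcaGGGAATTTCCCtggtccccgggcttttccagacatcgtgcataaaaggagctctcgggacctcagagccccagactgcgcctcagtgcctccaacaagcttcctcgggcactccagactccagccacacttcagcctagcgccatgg
Ccl3: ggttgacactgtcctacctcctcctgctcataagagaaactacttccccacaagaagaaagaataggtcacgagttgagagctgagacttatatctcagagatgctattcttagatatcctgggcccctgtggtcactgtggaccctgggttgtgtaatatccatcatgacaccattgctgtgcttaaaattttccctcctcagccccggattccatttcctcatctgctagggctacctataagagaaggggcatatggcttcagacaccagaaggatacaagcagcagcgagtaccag
Cxcl2 held 1 matching stretch of 11 bases, where overlapping matches of both strands meet, and the Ccl3 window held none. Of 32851 promoters of this length in the RefSeq table, 6810 (20.7%) held a match.

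The neutrophil attractant Cxcl2 (chromosome 5, 90903871 to 90905938) was at 7.97, 8.30, 373 and 28.9 CPM in CM1 1 to 4 and at 3.56, 2.18, 1.35, 25.4 and 1.502 CPM in CMA 1 to 5. CM1 3 and CM1 4 were above every CMA library, whereas CM1 1 and CM1 2 were below CMA 4. The log2 fold change was 3.96 (SE 1.47, 95% interval 0.90 to 7.02) and 1.17 without CM1 3. Ccl4, a chemokine of monocytes and T cells, was at 2.62, 2.47, 55.7 and 4.59 CPM in CM1 and 2.21, 0.73, 0.68, 2.28 and 1.41 CPM in CMA. These groups did not overlap, yet CM1 1 and CM1 2 exceeded CMA 4 only slightly. The log2 difference was 3.48 (SE 0.81), and 1.14 without CM1 3. Ccl3, its neighbour and close relative on chromosome 11, was at 4.67, 6.00, 71.6 and 9.52 CPM in CM1 and 5.53, 0.97, 1.58, 4.93 and 3.29 CPM in CMA, with a log2 fold change of 2.82 (SE 0.74) that was 1.06 without CM1 3. Reads of Ccl3 and Ccl4 can be hard to assign because their sequences are similar.

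Ccl2, the main attractant of monocytes, was spread more evenly over the CM1 wounds. It was at 13.6, 29.8, 12.7 and 18.5 CPM in CM1 and 9.34, 5.08, 4.50, 12.1 and 12.9 CPM in CMA, where CM1 3 fell just below CMA 5. The log2 fold change of Ccl2 was 1.08 (SE 0.48). Its receptor gene Ccr2 (chromosome 9, 124101950 to 124113557), a marker of recruited monocytes, was at 47.0, 69.1, 39.0 and 58.3 CPM in CM1 and 33.5, 22.5, 29.9, 28.6 and 32.1 CPM in CMA. All CM1 libraries were above all CMA libraries, and the log2 fold change was 0.86 (SE 0.29, 95% interval 0.27 to 1.46). Leaving out each library in turn kept Ccr2 between 0.710 and 0.996. The Ctrl libraries averaged 33.2 ± 14.9 CPM (SD, n = 6), close to CMA. The list of monocyte and dendritic cell genes that holds Ccr2 did not lean in this way, with 11 of 17 higher in CM1 and a median of 0.05.

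Among the cytokines, Il1b, interleukin 1 beta, was at 19.6, 5.01, 199 and 42.4 CPM in CM1 and 6.39, 2.91, 2.59, 22.4 and 1.502 CPM in CMA. The difference was 3.23 (SE 1.23) on the log2 scale, and 1.66 without CM1 3. Tnf, tumour necrosis factor, was at 25.1 CPM in CM1 3 and between 3.19 and 5.60 CPM in the other 8 libraries. Its log2 fold change of 1.04 (SE 0.46) turned to -0.16 without CM1 3. Il6 stayed low, with no library above 3.13 CPM, and Il10, which dampens inflammation, stood at 0.69 on the log2 scale (SE 0.46). Il1rn, the interleukin 1 receptor antagonist, was at 58.4 ± 16.8 CPM (SD, n = 4) in CM1 and 45.2 ± 12.4 CPM (SD, n = 5) in CMA. Of the feedback genes of NF-kB 12 of 17 stood higher in CM1, with a median of 0.12. Without CM1 3 the count was 10 and the median 0.0090, and without CM1 3 and CMA 3 together they were 8 and -0.018. Interferon-induced genes did not lean toward CM1, with 12 of 30 higher and a median of -0.04.

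**Figure D2:**
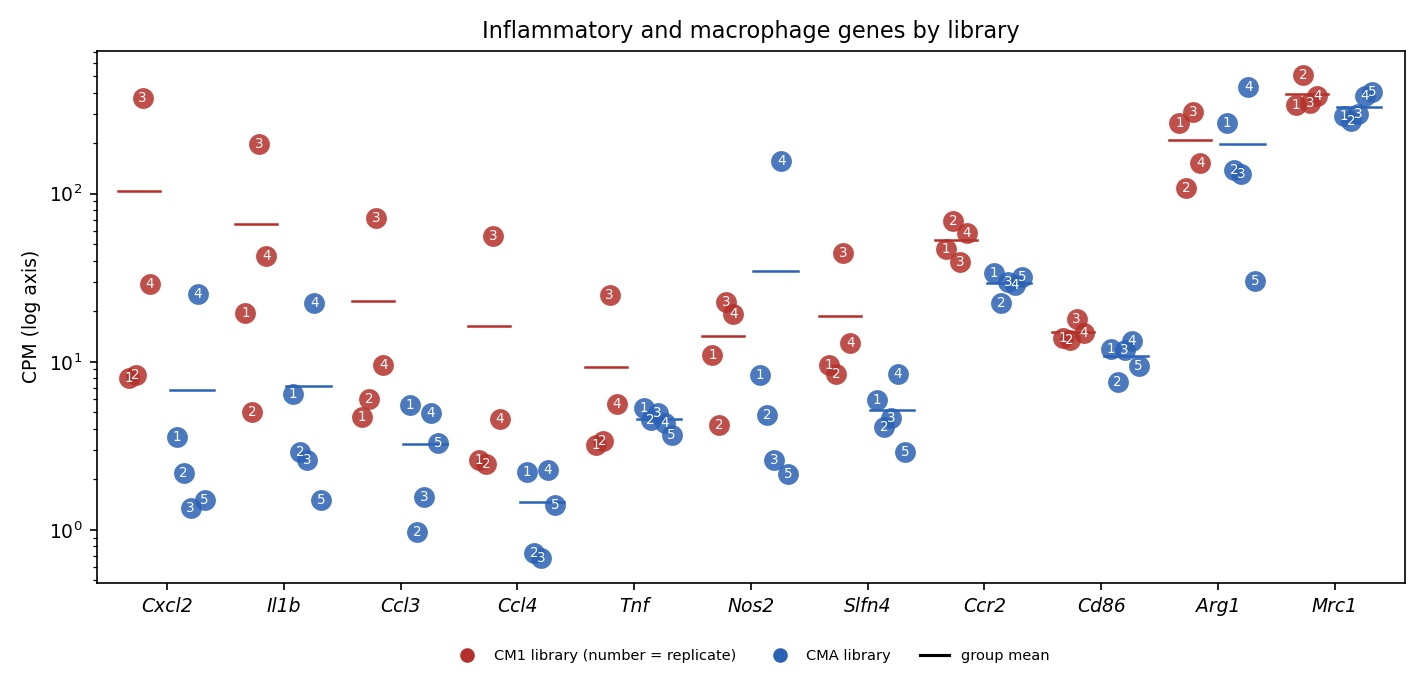
CPM on a log axis for 11 inflammatory and macrophage genes in each of the 4 CM1 libraries (red) and 5 CMA libraries (blue), numbered by replicate, with group means as lines. CM1 3 is the highest library for Cxcl2, Il1b, Ccl3, Ccl4, Tnf, Slfn4 and Cd86, CMA 4 is the highest for Nos2 and Arg1, and the groups do not overlap for Ccl4, Slfn4, Ccr2 and Cd86.

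Neutrophil genes leaned the same way as the chemokines. Of 18 tested members 13 stood higher in CM1, with a median log2 fold change of 0.72, and 3 had an unadjusted p under 0.05, all higher in CM1, beside 2.28% of all genes. That count was 1 without CM1 3 and 0 without CM1 3 and CMA 3 together. It was 8 without CM1 3 and CMA 4 together, and 8 of 17 tested without CMA 4. Over all genes in these fits, in either direction and the same order, it was 1020 of 19222, 831 of 19264, 1306 of 19283 and 1049 of 18978. The median was 0.46 without CM1 3, and 1.004 without CM1 3 and CMA 4 together. The summed level of the list, averaged as log2 CPM over its tested genes, was 3.72, 2.95, 4.85 and 3.87 in CM1 and 2.74, 2.51, 3.04, 4.05 and 2.27 in CMA, so the groups overlapped. Slfn4, a schlafen gene of myeloid cells, was at 9.57, 8.47, 44.1 and 12.9 CPM in CM1 and 5.90, 4.12, 4.61, 8.41 and 2.91 CPM in CMA. Its groups did not overlap, with a log2 fold change of 1.86 (SE 0.57) that was 1.003 without CM1 3. Hdc, which makes histamine and is shared with mast cells, stood at 2.14 (SE 0.75) on the log2 scale, and at 1.02 without CM1 3. The calprotectin genes S100a8 and S100a9, which wound keratinocytes also express, differed less, at 0.32 (SE 0.76) and 0.69 (SE 0.85). The granule genes Ltf, Camp, Elane and Mpo and the surface marker Ly6g were too low to test, with 10 Ly6g counts in all CM1 libraries and 0 in all CMA libraries.

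Lymphocyte genes were low and did not lean strongly. Of 18 tested genes of T and NK cells 11 stood higher in CM1, with a median of 0.08, and Gzmb, granzyme B, was at 2.56 ± 1.22 CPM (SD, n = 4) in CM1 and 1.47 ± 0.85 CPM (SD, n = 5) in CMA. Only 2 of 9 B and plasma cell genes could be tested. Il2rg, the receptor chain shared by interleukins 2, 4 and 7, was at 8.43, 9.21, 6.12 and 9.41 CPM in CM1 and 4.67, 4.36, 3.94, 5.89 and 5.63 CPM in CMA. Those groups did not overlap, and the log2 fold change was 0.76 (SE 0.21). Mast cell genes had 8 of 12 higher in CM1 and a median of 0.06.

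Blood endothelial genes stood higher in CM1 wounds as a list, and no library decided the direction. Of 23 tested members 22 stood higher in CM1, with a median log2 fold change of 0.43. An unadjusted p under 0.05 was found for 11 of the 23, all higher in CM1, beside 2.28% of all genes. In 4 of the 23 all CM1 libraries were above all CMA libraries, beside 0.569% of all genes. Leaving out any of the 9 libraries kept 22 of 23 higher in CM1, and the median lay between 0.31 (without CM1 4) and 0.56 (without CMA 1). The count with an unadjusted p under 0.05 was less steady, at 5 without CM1 4 and 6 without CMA 2. Over all genes it was 537 of 19234 and 555 of 18959 in these fits, in either direction. The members were measured in the same libraries and vary together, so their count is not a count of independent observations.

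The transcription factor gene Sox17 (chromosome 1, 4490931 to 4497354), which acts in arterial endothelium, had the smallest p of the list. It was at 9.80, 8.14, 7.57 and 8.18 CPM in CM1 and 6.14, 5.57, 5.63, 4.69 and 4.98 CPM in CMA. The groups did not overlap, and the log2 fold change was 0.64 (SE 0.18, 95% interval 0.26 to 1.02), with values between 0.56 and 0.70 when each library was left out in turn. The members that follow were chosen after their values were seen. Pecam1, the endothelial adhesion molecule CD31, was at 139, 110.2, 99.4 and 154 CPM in CM1 and 99.3, 79.4, 92.0, 69.1 and 87.9 CPM in CMA, with CM1 3 only just above CMA 1. Its log2 fold change was 0.55 (SE 0.18). Mmrn2, an endothelial matrix protein, and Nos3, the endothelial nitric oxide synthase, also did not overlap between groups and both had a log2 fold change of 0.51 (SE 0.18).

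Genes of vessel growth were among the others. Kdr, the main receptor for vascular endothelial growth factor, stood at 0.42 (SE 0.18) on the log2 scale, and Cdh5, the cadherin of endothelial junctions, at 0.46 (SE 0.21). Egfl7, secreted by endothelium, was at 0.57 (SE 0.17), Robo4, an endothelial guidance receptor, at 0.50 (SE 0.22) and Emcn, endomucin, at 0.52 (SE 0.21). Of the related transcription factors, Sox18 was at 0.59 (SE 0.20), while Sox7 was the member that stood lower in CM1, at -0.31 (SE 0.24). Vegfa, the growth factor itself, was at 82.3 ± 23.8 CPM (SD, n = 4) in CM1 and 91.1 ± 52.2 CPM (SD, n = 5) in CMA.

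**Figure D3:**
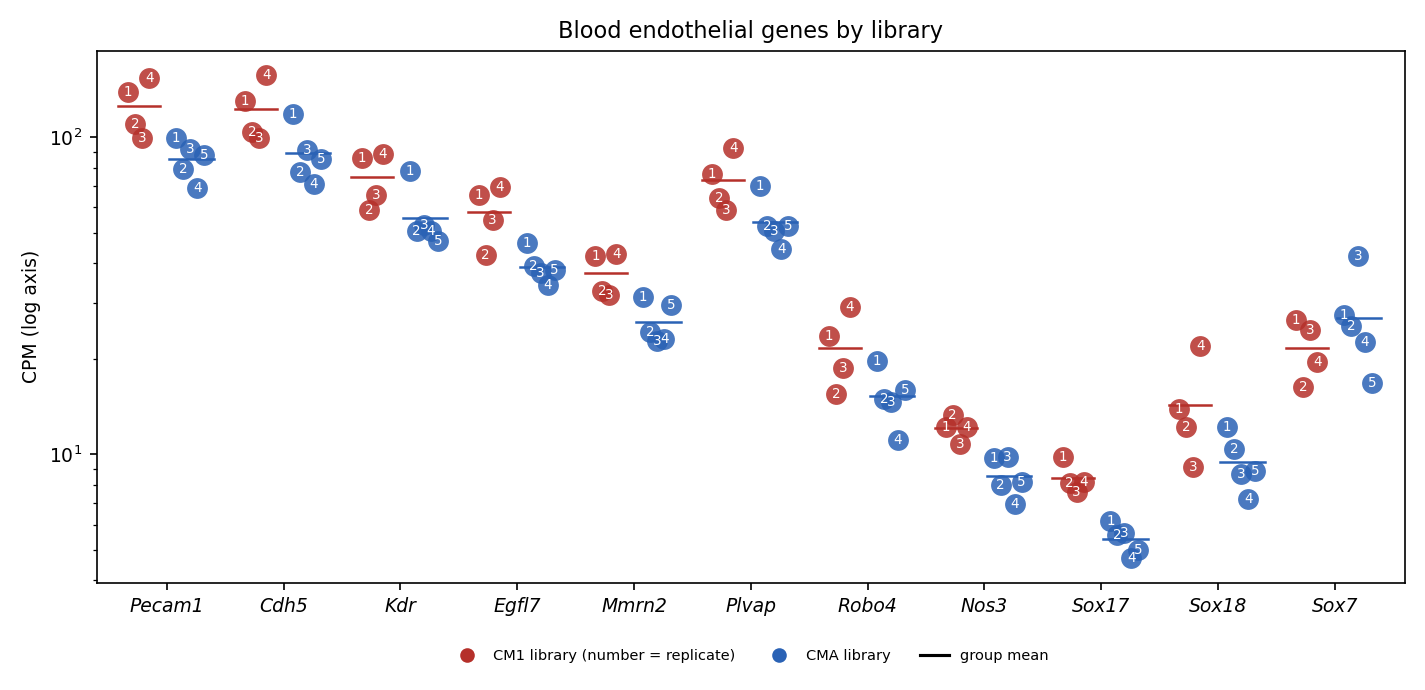
CPM on a log axis for 11 of the 23 blood endothelial genes in each CM1 (red) and CMA (blue) library, numbered by replicate, with group means as lines. CM1 4 is the highest library for Pecam1, Cdh5, Kdr, Egfl7, Mmrn2, Plvap, Robo4 and Sox18, the groups do not overlap for Pecam1, Mmrn2, Nos3 and Sox17, and Sox7 is the gene with a lower mean in CM1.

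Neighbouring vessel lists did not share the lean. Of 20 genes of myofibroblasts and pericytes 11 stood higher in CM1 (median 0.03), and of 8 lymphatic endothelial genes 4 did (median 0.01). Of 6 erythrocyte genes 3 stood higher, with a median of -0.08. Against the shared Ctrl libraries, all 23 blood endothelial genes stood higher in CM1 (median 0.28) and 4 of 23 in CMA (median -0.19). The endothelial score was 5.08 ± 0.19 (SD, n = 4) in CM1, 4.69 ± 0.14 (SD, n = 5) in CMA, 4.79 ± 0.30 (SD, n = 6) in Ctrl, 4.94 ± 0.21 (SD, n = 4) in CM0 and 4.86 ± 0.17 (SD, n = 5) in CMC. The score of CMA 1 (4.92) was level with that of CM1 3 (4.92), so the score groups overlapped.

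In the epidermis the lean was toward CMA. All 28 genes of the cornified layers stood higher in CMA wounds, with a median log2 fold change of -0.36, although only 1 had an unadjusted p under 0.05, beside 1.72% of all genes, and 0 had all CMA libraries above all CM1 libraries, beside 0.49%. No more than 1 of the 28 stood higher in CM1 under any alternative, and the median ranged from -0.23 (without CMA 3) to -0.53 (without CM1 3) when each library was left out. The score was 7.72, 7.12, 7.99 and 7.01 in CM1 and 7.79, 8.02, 8.26, 7.94 and 7.35 in CMA. CM1 2 and CM1 4 were the lowest libraries, and CM1 1 and CM1 3 were within the CMA range. Against the shared Ctrl libraries 28 of 28 stood higher in CMA (median 0.60) and 23 of 28 in CM1 (median 0.24).

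Krt2, a keratin of the upper spinous and granular layers, had the largest difference of the list. It was at 28.5, 15.0, 55.0 and 9.19 CPM in CM1 and 47.8, 141, 24.8, 74.9 and 93.9 CPM in CMA, and its groups overlapped through CM1 3 and CMA 3. Its log2 fold change was -1.51 (SE 0.52, 95% interval -2.59 to -0.43), which lay between -2.12 and -1.17 when each library was left out. Krt10, the main keratin of suprabasal cells, was at 1643 ± 557 CPM (SD, n = 4) in CM1 and 2169 ± 863 CPM (SD, n = 5) in CMA, with a log2 fold change of -0.40 (SE 0.28) that was -0.14 without CMA 3. Flg, filaggrin, was at -0.43 (SE 0.37) and Lor, loricrin, at -0.23 (SE 0.23), both structural proteins of the cornified envelope and its matrix, and Klk5, a protease of shedding, was at -0.60 (SE 0.35).

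Basal and wound-edge keratinocytes differed less. Of 18 basal genes 5 stood higher in CM1, with a median of -0.11, and Krt5, the basal keratin, was at 1157 ± 252 CPM (SD, n = 4) in CM1 and 1517 ± 177 CPM (SD, n = 5) in CMA. The wound-edge list held keratins and other genes that activated keratinocytes switch on at a wound margin. Of its 24 tested members 9 stood higher in CM1, with a median of -0.19 that was 0.08 with limma and 0.04 without CM1 2. Krt6a and Krt16, the activation keratins, had log2 fold changes of 0.04 (SE 0.66) and -0.16 (SE 0.61). Ereg, the epidermal growth factor family ligand epiregulin, was at 7.41, 5.59, 14.5 and 5.49 CPM in CM1 and 17.8, 12.6, 32.5, 14.7 and 9.48 CPM in CMA. Only CM1 3 reached into the CMA range, and the log2 fold change of Ereg was -1.08 (SE 0.45).

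Hair follicle and pigment cell genes varied widely between CMA libraries, and also between Ctrl and between CM0 libraries. The hair follicle score had an SD of 2.14 in CMA, 0.62 in CM1, 3.58 in Ctrl, 2.08 in CM0 and 1.13 in CMC. For the melanocyte score the SDs were 0.84, 0.25, 1.67, 1.17 and 0.32 in the same order. All 15 tested hair follicle genes stood higher in CMA, with a median log2 fold change of -2.35, yet 0 had an unadjusted p under 0.05. In 1 of the 15, Hoxc13, all CMA libraries were above all CM1 libraries, beside 0.49% of all genes. The fit of CM1 and CMA libraries alone tested 11 of these genes and had 7 with an unadjusted p under 0.05. Over all genes, that fit had 684 of 17564 in either direction. The limma median of the hair follicle list was -0.86. The hair score was 4.93 in CMA 3, 3.26 in CMA 2 and 2.43 in CMA 5, against -0.11 in CMA 1, 0.13 in CMA 4 and between 0.12 and 1.47 in CM1. Krt71, a keratin of the inner root sheath, was at 365 CPM in CMA 3, 91.2 CPM in CMA 2 and 50.1 CPM in CMA 5, and at 0.49 CPM in CMA 1 and 1.32 CPM in CMA 4, with 3.42 to 19.6 CPM in CM1. Leaving out each library in turn kept 0 of the 15 genes higher in CM1, and without CMA 3 the list median was -1.13. Melanocyte genes moved alongside, with 8 of 10 higher in CMA and a median of -1.05 that was -0.37 without CMA 3. CMA 3 was also the highest library in the cornified score (8.26), and whether the follicle content of the tissue has a part in the epidermal lean was not tested. Without CMA 3, 27 of the 28 cornified genes still stood higher in CMA.

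**Figure D4:**
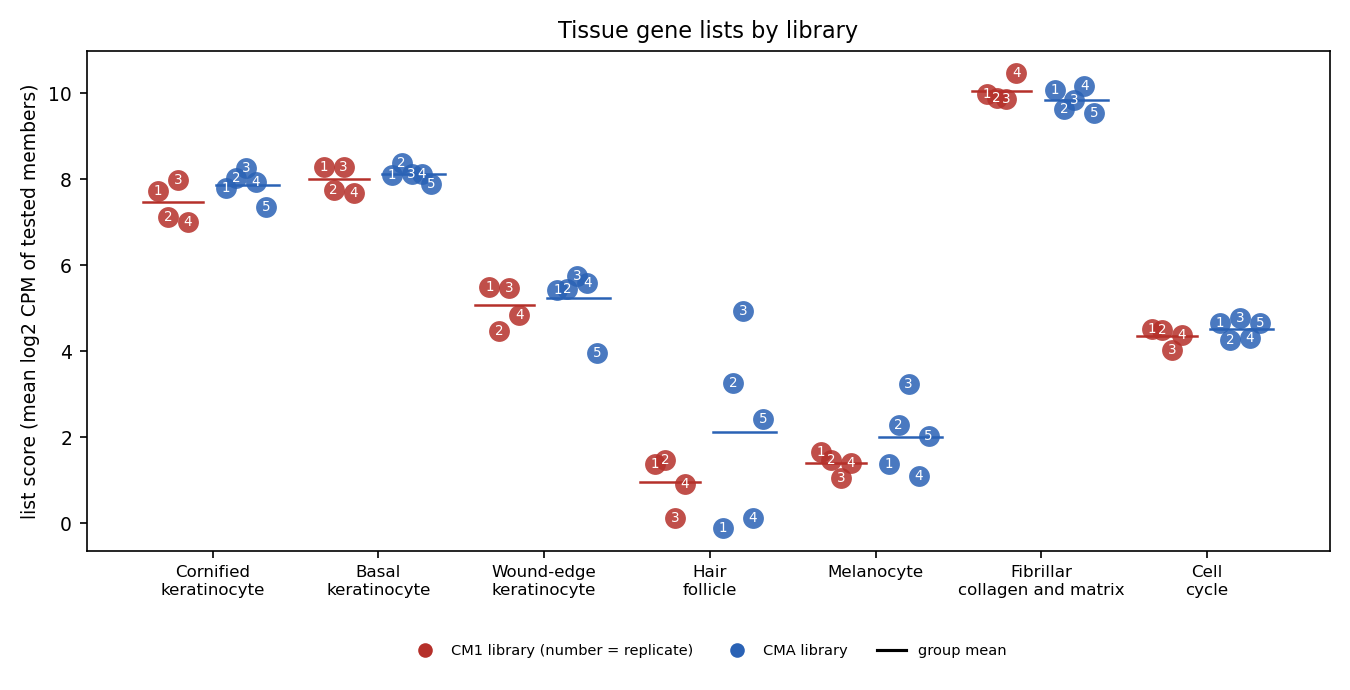
List scores (log2 CPM averaged over tested members) in each CM1 (red) and CMA (blue) library, numbered by replicate, with group means as lines. The cornified score is lowest in CM1 4 (7.01) and CM1 2 (7.12), the hair follicle score runs from -0.11 in CMA 1 to 4.93 in CMA 3, and every list shown overlaps between groups.

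Matrix genes leaned slightly to CM1, and did not without 1 library. Of 35 genes of fibrillar collagens and other matrix 32 stood higher in CM1, with a median of 0.18 and 0 with an unadjusted p under 0.05. Without CM1 4, which had the highest score (10.5), 16 of 35 stood higher and the median was -0.01. Col1a1 was at 27786, 25100, 20612 and 40273 CPM in CM1 and 36417, 30162, 25573, 30731 and 24132 CPM in CMA, with a log2 fold change of -0.05 (SE 0.17). Bgn, the small proteoglycan biglycan, was at 0.32 (SE 0.16), and Acta2, smooth muscle actin and the marker of myofibroblasts, at 0.07 (SE 0.26).

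Of 23 genes for matrix proteases and their inhibitors 18 stood higher in CM1, with a median of 0.16. Mmp13, collagenase 3, was at 85.8, 62.3, 56.2 and 128 CPM in CM1 and 53.0, 14.5, 36.7, 70.0 and 45.9 CPM in CMA, where CMA 4 lay inside the CM1 range, and its log2 fold change was 0.91 (SE 0.44). Mmp3, stromelysin 1, was at 0.43 (SE 0.20) and Mmp9, gelatinase B of neutrophils and keratinocytes, at 0.56 (SE 0.59). Growth factors and their receptors had 21 of 32 higher in CM1 and a median of 0.04, with Tgfb1 at 0.12 (SE 0.15) and Igf1 at 0.24 (SE 0.15).

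Of 30 cell cycle genes 28 stood higher in CMA, with a median of -0.17. Kif23, a kinesin of cell division, was at 15.5 ± 3.96 CPM (SD, n = 4) in CM1 and 21.8 ± 5.58 CPM (SD, n = 5) in CMA, with a log2 fold change of -0.49 (SE 0.22). Leaving out each library in turn gave cell cycle medians from -0.25 to -0.098, with 2 to 7 of 30 genes higher in CM1. CM1 3 had the lowest cell cycle score (4.03) and CMA 3 the highest (4.77). Without both, 14 of 30 genes stood higher in CM1 and the median was -0.03. Schwann cell genes had 2 of 13 higher in CM1 and a median of -0.23, which were 4 of 13 and -0.072 without CMA 5.

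Other lists describe the tissue taken or the state of the RNA. Medians were -0.05 for 27 skeletal muscle genes, -0.06 for 19 adipocyte genes and 0.16 for 12 sebaceous gland genes. Leaving out each library in turn gave medians from -0.30 to 0.16 for skeletal muscle and from -0.33 to 0.21 for adipocyte genes. They were -0.09 for 11 mitochondrially encoded genes, -0.03 for 30 cytosolic ribosomal protein genes, -0.11 for 20 immediate early genes and -0.02 for 13 heat shock chaperones. Hypoxia and glycolysis genes had a median of -0.07, clock genes 0.05 and glucocorticoid-responsive genes -0.13. Among the last, Per1, also a clock gene, was at 67.6, 85.4, 111.9 and 48.6 CPM in CM1 and 107, 155, 86.9, 144 and 102 CPM in CMA, with a log2 fold change of -0.60 (SE 0.22).

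**Figure D5:**
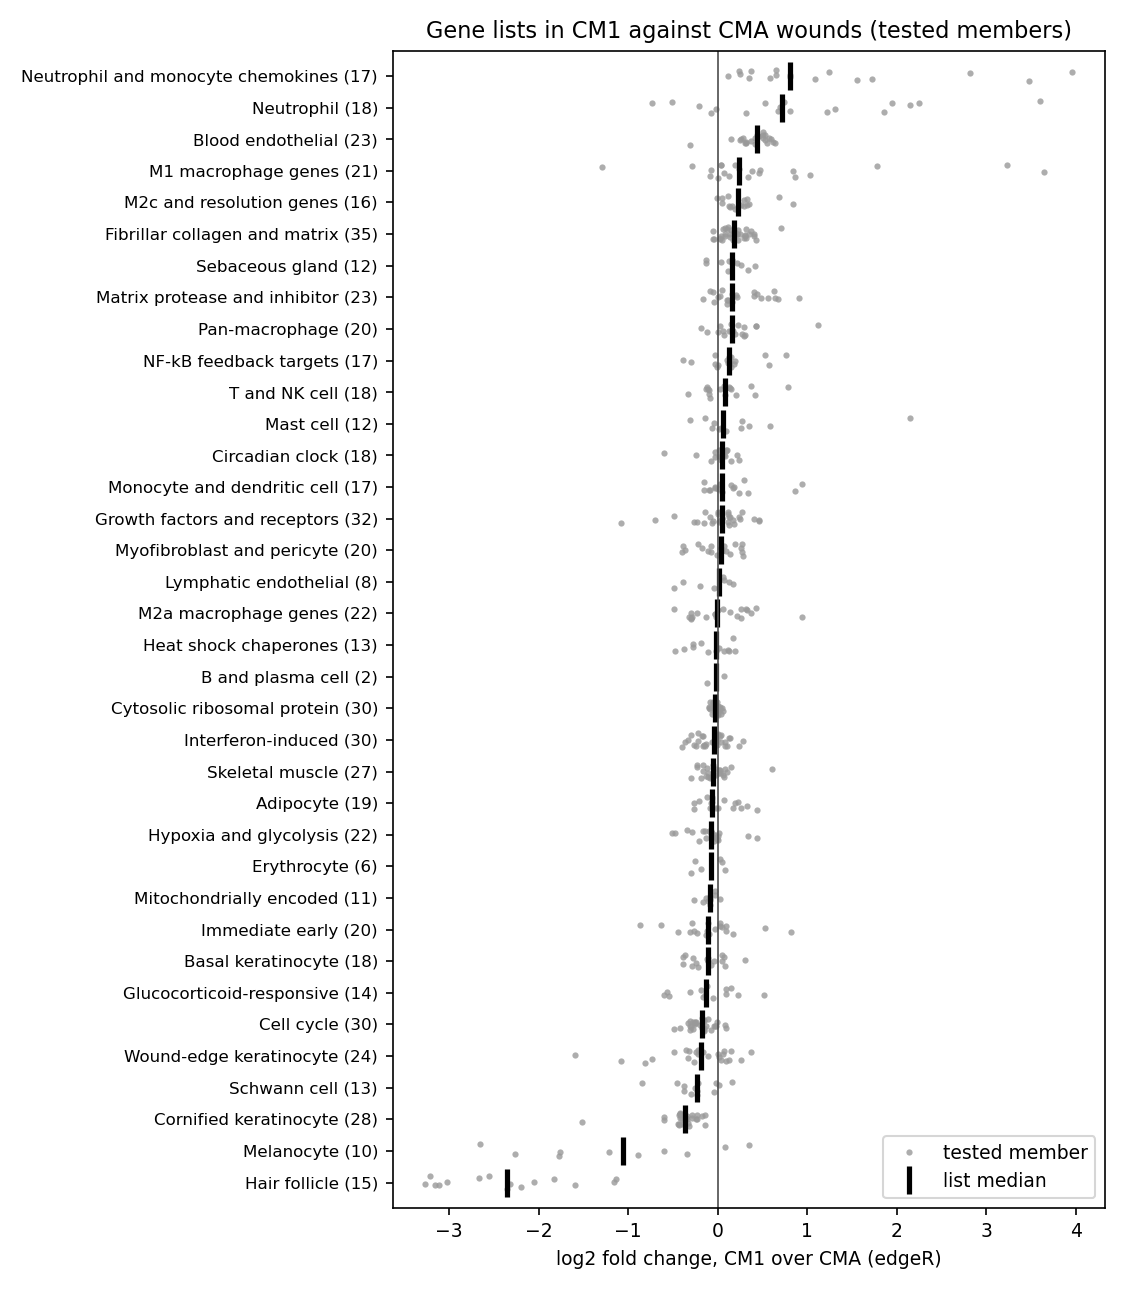
Each row is 1 of 36 gene lists, with the number of tested members in brackets, each grey point is the edgeR log2 fold change of CM1 over CMA of 1 member, and the black bar is the list median. Chemokines (0.80), neutrophil (0.72) and blood endothelial genes (0.43) have the highest medians and hair follicle (-2.35), melanocyte (-1.05) and cornified keratinocyte genes (-0.36) the lowest.

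The genes with the smallest p in each direction belonged to varied functions. Fibin (ENSMUSG00000074971, chromosome 2, 110360917 to 110363183), which encodes a secreted protein named for fin bud initiation, was at 44.4, 25.7, 35.8 and 65.9 CPM in CM1 and 19.4, 14.4, 29.6, 24.2 and 11.6 CPM in CMA. CM1 2 fell below CMA 3, and the other CM1 libraries were above every CMA library. Its log2 fold change was 1.11 (SE 0.26, 95% interval 0.58 to 1.65), a ratio of 2.165 (95% interval 1.495 to 3.135), and values between 0.83 and 1.31 were found when each library was left out. Fibin averaged 18.5 ± 2.99 CPM (SD, n = 6) in Ctrl, 37.3 ± 9.78 CPM (SD, n = 4) in CM0 and 28.7 ± 5.14 CPM (SD, n = 5) in CMC, so CMA was the medium group with the mean nearest to Ctrl. Zfp870, a zinc finger gene, was at 0.54 (SE 0.13), Grrp1 at 0.83 (SE 0.21), the non-coding gene Gm44443 at 0.67 (SE 0.18) and Hps3, a gene for the making of pigment granules and related organelles, at 0.30 (SE 0.08).

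On the CMA side the functions were as varied. Tob2, a brake on cell division, was at 48.3 ± 5.90 CPM (SD, n = 5) in CMA and 38.4 ± 1.90 CPM (SD, n = 4) in CM1, and Dcp1a, of the messenger RNA decapping machinery, had a log2 fold change of -0.27 (SE 0.07). Omd (chromosome 13, 49582462 to 49592822), the matrix proteoglycan osteomodulin, was at 7.29, 7.15, 7.78 and 6.39 CPM in CM1 and 14.7, 10.4, 11.3, 12.1 and 7.79 CPM in CMA. CMA 5 was level with CM1 3 and the other CMA libraries stood clear of CM1, with a log2 fold change of -0.65 (SE 0.18). Tph2, the serotonin-synthesising enzyme of neurons, was at 3.30, 0.74, 3.11 and 0.67 CPM in CM1 and 3.32, 9.32, 3.71, 5.17 and 6.57 CPM in CMA, where CM1 1 and CMA 1 all but met, with a log2 fold change of -1.54 (SE 0.45). Vamp2, a membrane fusion protein, was at -0.37 (SE 0.10), Twnk, the mitochondrial DNA helicase, at -0.42 (SE 0.12), Snhg12, a host gene of small nucleolar RNAs, at -0.40 (SE 0.12), and Gm43747 at -0.63 (SE 0.19). With no strand in the counts, reads of a gene that overlaps another on the opposite strand cannot be told apart.

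Set beside Ctrl, whose 6 libraries serve both contrasts, several of these differences had CM1 and CMA on opposite sides of the control mean. Ccl4 was at 2.99 (SE 0.72) in CM1 over Ctrl and -0.49 (SE 0.82) in CMA over Ctrl on the log2 scale. Cxcl2 was at 2.68 (SE 1.27) and -1.28 (SE 1.35). Its control mean rested largely on Ctrl 1 at 77.6 CPM, with 1.17, 1.14, 0.68, 1.09 and 14.6 CPM in Ctrl 2 to 6. Even the lowest CMA library, at 1.35 CPM, was above Ctrl 2 to 5. Ccl4 was at 4.79 CPM in Ctrl 1 and between 0.94 and 2.44 CPM in Ctrl 2 to 6. Ccr2 was at 0.68 (SE 0.27) and -0.18 (SE 0.26), Sox17 at 0.45 (SE 0.17) and -0.19 (SE 0.17). Ereg was at -0.05 (SE 0.44) and 1.03 (SE 0.40). Krt2 was at -1.44 (SE 0.51) and 0.07 (SE 0.45), and Fibin at 1.21 (SE 0.24) and 0.09 (SE 0.24). For these 2 genes CMA lay near the control mean and CM1 away from it. Krt2 was also low in CM0, with means of 26.9 CPM in CM1, 32.1 in CM0, 65.8 in CMC and 73.2 in Ctrl.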

How the data were processed

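RNA was measured in 24 wounds, and each file holds raw counts per gene that the authors deposited for 54232 genes. Per the labels' protocols, total RNA was depleted of ribosomal RNA and made into libraries with a kit that does not mark the strand. The submitters' processing notes name bcl2fastq 2.17, FastQC, cutadapt, STAR, featureCounts, DESeq2 and the build GRCm38. Which annotation release was used for counting is not stated there. Symbols for 54079 identifiers and coordinates came from GENCODE M21. Groups were taken from the treatment label. None of the 6 pairs within CM1 and 10 pairs within CMA agreed within sampling noise.

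Genes with low counts were removed with filterByExpr of edgeR 4.0.16 (R 4.3.3), libraries were scaled with TMM, and 1 robust quasi-likelihood model with 1 term per group was fitted to all 24 libraries, which share its estimate of the spread. The contrast was CM1 minus CMA, with Benjamini-Hochberg adjustment over all genes tested and a threshold of 0.05. The script was tested on simulated data. CPM are scaled with TMM and ± is an SD. Scores use a prior count of 2. Alternatives were DESeq2 size factors, no filter, DESeq2 1.42.0, limma 3.58.1 (voom with sample weights), a fit of CM1 and CMA alone, each library left out, and CM1 3 left out with CMA 3. Leaving out CM1 3 with CMA 4 was added after the data were seen. P-values of the main fit set the difference between CM1 and CMA against the spread between libraries within groups, estimated over all 24 libraries. Each library stands for 1 mouse as far as the design says. Between libraries of a group the chi-square per gene was 13.0 to 40.4, where counting error alone gives about 1.

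The members and the 36 gene lists (728 entries, of which 722 matched a symbol) were chosen with earlier results of these data known. Lists are described by counts and medians, with no test. Genes named are those past the threshold (0 were), the 8 with the smallest p in each direction at a mean of 1 CPM or more, a panel of 34 genes, and the member with the smallest p in each list. Any other gene was picked once its values were known. Close paralogs can share reads, which concerns Ccl3 and Ccl4, hair keratins, Stfa3, Sprr genes, globins and ribosomal protein genes.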

Additional observations from a re-analysis of the deposited data

Results flagged for a closer look

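The rule examined 230 groups of 4 or 5 libraries, of named genes and of list scores, for a highest or lowest library far from the others of its group. It marked 13, and chance marks about 1 in 20 groups. CMA 4 had the highest CMA level of Il4ra (231.8 CPM) and of Hdc (13.5 CPM), the lowest of Gfra3, a receptor of nerve growth signals (0.72 CPM), and the highest CMA scores of M1 macrophage genes (3.57) and of NF-kB feedback genes (5.33). CMA 5 had the lowest CMA level of S100a8 (15.8 CPM), Krt14 (1999 CPM) and Hk2, a glycolytic enzyme (81.0 CPM), and the lowest wound-edge keratinocyte score (3.97). CMA 2 had the highest Vamp2 level (56.4 CPM). CM1 2 had the lowest CM1 level of Mcam, an adhesion molecule of pericytes and endothelium (90.0 CPM), and the highest score of the 2 tested B and plasma cell genes (3.09). CM1 4 had the highest score of fibrillar collagen and matrix genes (10.5).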

How the results depend on the processing

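In every alternative 0 genes passed the threshold. At an unadjusted p under 0.05 there were 759 genes, 1360 with no filter on low counts, 1306 without CM1 3 and CMA 4 together, and between 537 (without CM1 4) and 1049 (without CMA 4) when 1 library was left out. Of 79 named genes 66 kept their direction under every alternative and 13 did not. Ranges over leaving out 1 library were -1.61 to 1.69 for Nos2, -0.22 to 0.56 for Arg1, -1.71 to 0.74 for Retnla, -0.16 to 1.31 for Tnf, -0.34 to 1.13 for Il6, -0.19 to 0.27 for Krt6a and -0.39 to 0.12 for Krt16. They were -0.262 to 0.0897 for Col1a1, -0.10 to 0.25 for Col3a1, -0.0813 to 0.461 for Fn1, -0.0670 to 0.268 for Acta2, -0.33 to 0.25 for Vegfa and -0.438 to 0.0902 for Ighm. With limma Nos2 was at 0.29 and Il6 at 0.52. Without CM1 3 and CMA 3 together Arg1 was at -0.29, Tnf at -0.13, Il6 at 0.0090 and Col1a1 at 0.037. Without CM1 3 and CMA 4 together Nos2 was at 1.36, Retnla at 0.045, Tnf at -0.17, Il6 at 1.31, Col1a1 at 0.10 and Vegfa at 0.12. Apart from the libraries left out, the cause was not tested. The medians of 15 of the 36 lists kept their sign under every alternative and 21 changed it. No paired analysis was possible because the labels give no numbers that pair mice of different groups, and replicate numbers follow accession order. The Cxcl2 difference of 3.96, which was 1.17 without CM1 3, did not pass with 4 and 5 mice a group. Whether group size or the spread between libraries had a part in the lack of calls was not tested.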
